A study of Mus musculus with 12 samples.

Results

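Liver RNA was compared between male mice that had met an obesogenic diet at different stages of life, either through their own food after weaning or only through their mother. In the group called CO the dams ate control chow and the sons ate the obesogenic diet from weaning, and in the group called OC the dams ate the obesogenic diet until weaning and the sons then ate control chow. The comparison took every library of the deposited table whose column name starts with CO (2 libraries, CO.0 and CO.1) or OC (3 libraries, OC.0, OC.1 and OC.2), 5 of the 11 libraries in the table, and 12084 of its 12086 genes. The other 2 genes were listed at exactly 0 in every CO library and were set aside. Because CO and OC differ in the diet of the dam and in that of the son, a difference between them cannot be assigned to either diet alone.

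All animals were wild-type C57BL/6 males, weaned at postnatal day 21 from litters set to 6 pups, and killed after a fast at day 84 (12 weeks). Control chow held 7% simple sugars and 3% fat by weight. The obesogenic diet held 10% simple sugars and 20% fat and came with condensed milk (55% simple sugars, 8% fat, 8% protein) to which minerals and vitamins had been added. Sons of control dams weaned onto chow (CC, 3 libraries) and sons of obesogenic dams weaned onto the obesogenic diet (OO, 3 libraries) are given as levels beside the comparison. The labels list 3 animals in each group, do not say which sons shared a litter, and do not tie a library to an animal, so p-values measure the spread between these libraries.

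The liver makes hepcidin, the hormone encoded by Hamp that blocks the iron exporter ferroportin. Endothelial cells of the liver release BMP6, which switches Hamp on through SMAD proteins in hepatocytes, and inflammatory signals raise Hamp through STAT3. Hepatocytes also break down amino acids, make glycogen and bile acids, conjugate drugs and toxins with glutathione or glucuronic acid, respond to interferons with a set of antiviral genes, and raise acute phase proteins in inflammation.

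The labels give liver as the tissue. Of 15 listed hepatocyte markers 14 were tested, and their summed scaled counts were 74945 to 87762 in the CO and OC libraries. Scaled counts are the deposited values, gene counts divided by 1 factor per library. Depth was estimated as 4575514 to 7969056 reads per library in CO and OC by taking the usual step between recurring values as 1 read. Not all values are whole multiples of it, so these depths, and the floors of 3 reads given below, are approximate. Exocrine pancreas transcripts stood high in OC.0 (summed scaled count over 18 genes 7193) and CO.1 (4558), against 27.5 to 116 in the other CO and OC libraries. Acute phase transcripts stood high in CO.1 (sum over 32 genes 95219) and OC.1 (65478), against 21205 to 34711 in the others. The set-aside genes were mt-Rnr2, the mitochondrial 16S ribosomal RNA, at 43306 to 45424 in OC, and Mup17, from the family of urinary pheromone carriers whose copies are almost alike, at 191 to 1416 in OC. Both were also at exactly 0 in every OO library, whereas in CC mt-Rnr2 stood at 43529 to 51009 and Mup17 at 107 to 754. The zeros thus followed whole groups, and whether genes were counted alike in all groups was not tested. An exact 0 in such genes can be a failed estimate, and no fold is given.

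Between CO and OC, 60 of 12084 genes (0.497%) passed an adjusted p under 0.05 by limma's moderated test with Benjamini-Hochberg adjustment over all genes tested. Of these, 31 (0.257%) were higher in CO and 29 (0.24%) lower. Their fitted folds ran from 1.62 to 11.9. With 2 libraries against 3, groups that do not overlap were common: in 12.9% of all genes both CO libraries lay above every OC library, and in 14.3% below, so a lack of overlap noted for a gene below is a description of its values. The genes lower in CO included Hamp and its inducer Bmp6, enzymes of taurine and phospholipid metabolism, and the glutathione transferases Mgst3 and Gstm1. Those higher in CO included interferon-stimulated genes, the metalloreductase Steap4, the zinc and iron importer Slc39a14 and the transcription factors Onecut1 and Xbp1. At an unadjusted p under 0.05, 732 genes (6.06%) were higher in CO and 806 (6.67%) lower, where 604 of either direction are the chance number. The median log2 difference of all genes tested was -0.01.

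The number of genes called rested on single libraries. Leaving out OC.0 gave 7 calls, CC.2 10, CO.1 12, OC.2 17 and CC.0 26, whereas leaving out CO.0 gave 81, of which 29 are among the 60. Leaving out OC.1 gave 71, of which 40 are among the 60. Without both libraries high in pancreas transcripts, OC.0 and CO.1, limma called 0 genes, with 936 at an unadjusted p under 0.05. In every one of the 11 fits that left out 1 library 4 genes passed, among them Srgap3, Gas1 and Htatip2. All 60 kept their direction in every fit, but for all 60 the CO and OC libraries did not overlap. Leaving out libraries could therefore not have turned their direction.

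**Figure D1:**
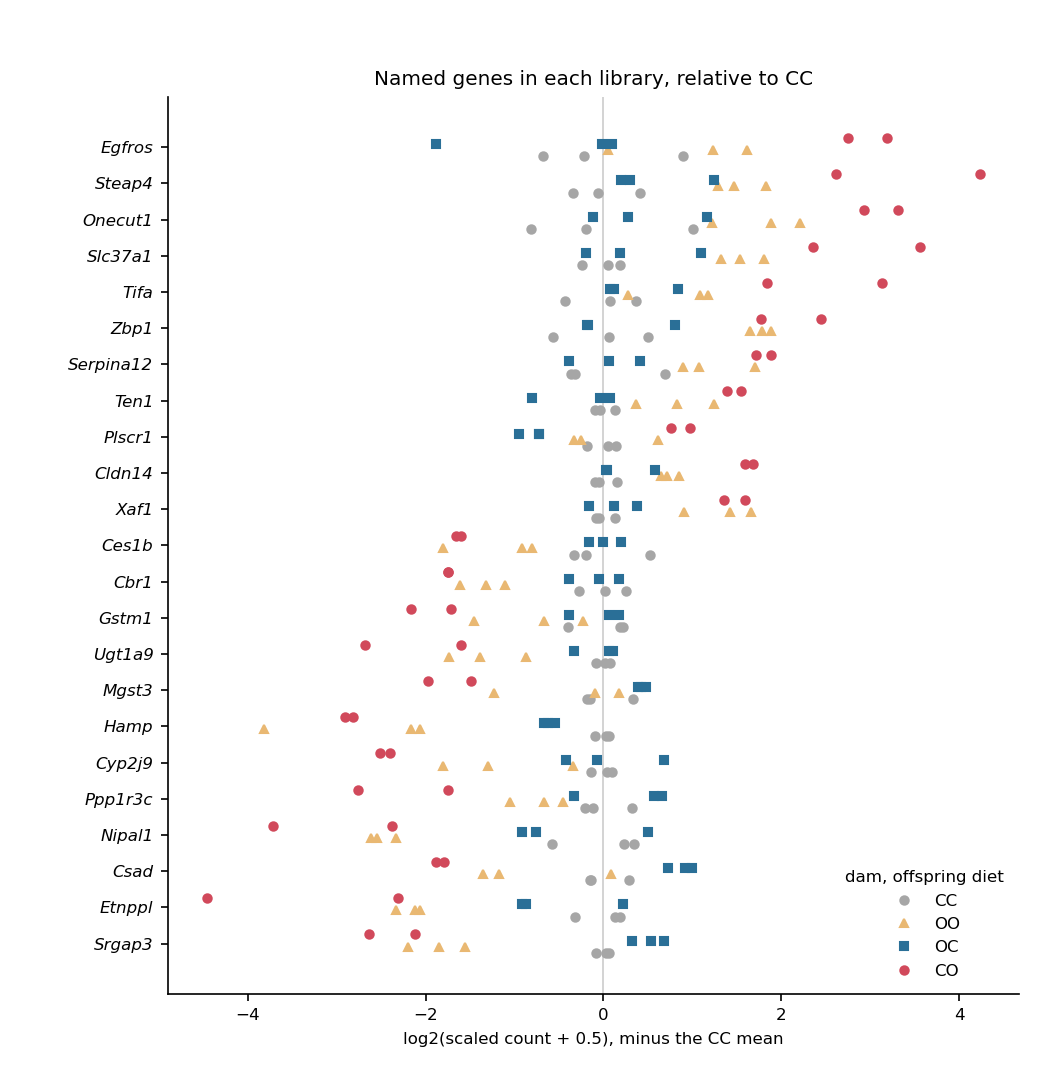
Each row is 1 of 23 genes chosen by the rule for named genes, and each point is 1 library of CC, OO, OC or CO, placed by its log2(scaled count + 0.5) minus the mean of the CC libraries. The CO libraries (red circles) lie away from the OC libraries (blue squares) in every row, to the right for 11 genes and to the left for 12, as the rule required.

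The promoter of Hamp is shown first because its known control elements belong to the pathways measured here. The 300-base window, from RefSeq on GRCm38.p6 and on the minus strand, was searched on both strands for GGCGCC, the core of a BMP response element, and TTCNNNGAA, a STAT site. Both occur, and the capitals mark them in order.
Hamp promoter (chr7:30943980-30944279): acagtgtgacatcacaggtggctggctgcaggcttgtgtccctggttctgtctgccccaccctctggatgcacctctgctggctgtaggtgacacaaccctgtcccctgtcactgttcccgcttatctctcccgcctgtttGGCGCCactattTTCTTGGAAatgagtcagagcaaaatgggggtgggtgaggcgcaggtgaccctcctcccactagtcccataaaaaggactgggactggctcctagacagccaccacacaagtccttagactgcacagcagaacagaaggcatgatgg
GGCGCC begins 109 bases before the annotated start and TTCTTGGAA begins 97 bases before it, and the matches do not overlap. Of 32851 promoter windows in the table, 11.9% hold GGCGCC and 8.30% hold TTCNNNGAA. The Bmp6 window holds neither. A match is a description of letters, and binding was not measured.

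Hamp stood at 58.7 and 62.9 scaled counts in CO and at 289, 306 and 279 in OC. Both CO libraries lay below all 3 OC libraries, by more than 4-fold, and the spread within each group was small. The fitted log2 difference was -2.25 (SE 0.39, 95% confidence interval -3.10 to -1.41, adjusted p = 0.0361 by limma). Hamp averaged 446 ± 26.5 (SD, n = 3) in CC and 78.8 ± 41.4 (SD, n = 3) in OO, so that the 5 libraries of sons on the obesogenic diet lay between 31.2 and 106 and the 6 of sons on chow between 279 and 466. The difference from CC was -2.86 (SE 0.39) in CO and -0.61 (SE 0.35) in OC, values that share the CC libraries. The call was lost without any 1 of the CC, CO or OC libraries, while the log2 difference lay between -2.31 and -2.20 under every alternative run and the adjusted p reached 0.609. Hamp2, a near copy of Hamp, stood at 2.33 and 0.655 in CO and 3.76, 1.22 and 0.587 in OC, and those libraries overlapped. How reads were divided between this pair is unknown here.

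Among the signals upstream of Hamp, Bmp6 stood at 2.0 and 2.40 in CO and at 6.23, 4.87 and 6.17 in OC. The CO libraries lay below the OC libraries, at levels worth few reads (a floor of 3 reads is 0.352 to 0.655 in these libraries). The log2 difference was -1.21 (SE 0.22, adjusted p = 0.0436 by limma). Of 20 endothelial markers tested, Bmp6 was the only one called, against 0.24% of all genes called lower. The summed marker level was 790 and 796 in CO against 817 to 837 in OC. In whole tissue, fewer cells of a type and less RNA per cell cannot be told apart.

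Of 6 genes known as targets of BMP signalling in the iron list, 5 had a negative difference and 0 passed the threshold. The median log2 difference of all genes was -0.01, so negative differences were common. Id1, a transcriptional inhibitor and the target with the largest difference, stood at 2.67 and 3.27 in CO against 10.8, 7.00 and 14.7 in OC (log2 difference -1.65, SE 0.56, adjusted p = 0.22 by limma). Its CC libraries ran from 4.91 to 29.2. Id3 stood at 25 and 24.9 against 50.3, 63.0 and 48.6. Smad7, the inhibitory SMAD, stood at 7.50 and 9.17 against 13.7, 16.4 and 17.5. Atoh8, a transcription factor, stood at 10.2 and 10.5 against 20.4, 13.2 and 21.3. The other members were Smad6, a further inhibitory SMAD, at 6.0 and 5.24 against 7.52, 8.82 and 6.31 (-0.39), and Id2, at 222 and 194 against 127, 128 and 180 (0.53). In all 6 the CO and OC libraries lay apart, as they did in 12.9% of all genes with CO higher and 14.3% with CO lower. The CC libraries spread widely for Id1, Id3 and Smad7.

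Of 30 iron-handling genes tested, Steap4 and Slc39a14 rose in CO relative to OC and Hamp and Bmp6 fell. Over all genes, 0.257% were called higher and 0.24% lower. At an unadjusted p under 0.05, 2 members were higher and 7 lower, against 6.06% and 6.67% of all genes. The median log2 difference of the 30 was -0.18. Steap4, a metalloreductase that is also induced in inflammation, stood at 363 and 1116 in CO and at 67.5, 140 and 72.5 in OC (log2 difference 2.85, SE 0.43, adjusted p = 0.0236 by limma). Slc39a14, a zinc and iron importer, stood at 324 and 517 in CO and at 164, 194 and 185 in OC (1.18, SE 0.20, adjusted p = 0.0361 by limma). For both genes CO.1, the library with most acute phase transcripts, was the higher of the CO pair, and CO.0 still lay above every OC library. Without CO.1 the log2 difference was 2.04 for Steap4 and 0.84 for Slc39a14, and neither passed. Slc40a1, which encodes ferroportin, stood at 162 and 111 in CO and at 276, 235 and 296 in OC (-0.99, SE 0.23, adjusted p = 0.0869 by limma). The ferritin subunit genes Fth1 and Ftl1, the sensors Hfe and Tfr2 and the protease gene Tmprss6 had differences between -0.29 and -0.05 and did not pass. The transferrin receptor Tfrc had a difference of 0.05 (95% confidence interval -0.65 to 0.74).

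**Figure D2:**
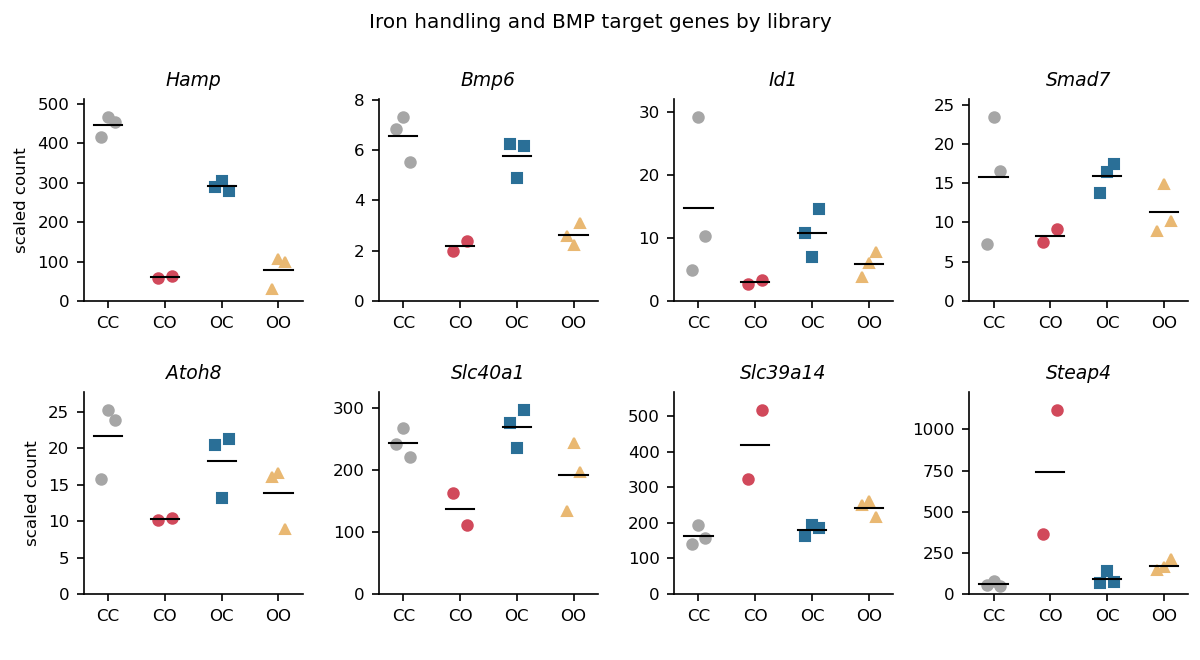
Each panel plots the scaled count of 1 gene (vertical axis, from 0) in every library of the 4 groups, with a bar at each group's mean. Hamp lies at 58.7 and 62.9 in CO and at 279 to 306 in OC, and Bmp6 follows the same order, while Slc39a14 and Steap4 lie higher in CO.

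Interferon-stimulated genes stood higher in CO. Of 43 tested, 5 rose (Adar, Parp14, Xaf1, Zbp1 and Rnf213) and 0 fell, where 0.257% of all genes were called higher. Of the 43, 42 had a difference above 0, with a median log2 difference of 0.85 against -0.01 for all genes. At an unadjusted p under 0.05, 35 of the 43 were higher, where the share over all genes was 6.06%. The list's mean level relative to CC was 1.26 and 1.01 log2 units in the CO libraries and -0.05, 0.50 and 0.18 in OC, without overlap. It was 0.99 to 1.38 in OO and -0.22 to 0.29 in CC. The list was written with results of these libraries known, and its direction is not independent evidence. Without OC.0 and CO.1 the median was 0.79 and 25 members were higher at an unadjusted p under 0.05, and without CO.1, OC.0 and OC.1 they were 0.93 and 24.

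Adar, an RNA-editing enzyme, stood at 45.2 and 44.3 in CO and at 26.6, 26.5 and 28.0 in OC. The groups were apart with little spread in either, and the log2 difference was 0.72 (SE 0.12, adjusted p = 0.0308 by limma). Zbp1, a sensor of Z-form nucleic acids, stood at 13.3 and 21.6 in CO and at 3.05, 6.54 and 3.08 in OC (1.97, SE 0.36, adjusted p = 0.0425 by limma). Xaf1, a partner of the apoptosis inhibitor XIAP, stood at 12.7 and 10.7 against 3.41, 5.17 and 4.26 (1.36, SE 0.24, adjusted p = 0.0383 by limma). OC.1 was the highest OC library for Zbp1 and Xaf1 and still lay below both CO libraries. Parp14, an ADP-ribosyltransferase, stood at 98.5 and 119 against 44.2, 59.5 and 54.3. Rnf213, a large ubiquitin ligase, stood at 299 and 407 against 184, 180 and 168. The member with the largest difference, the guanylate-binding protein gene Gbp11, did not pass (56.3 and 17.7 against 3.41, 8.82 and 3.23, adjusted p = 0.0956 by limma), and Gbp genes have close copies. Irf1 was the 1 member with a negative difference (-0.48, adjusted p = 0.461 by limma).

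Outside the list, Dtx3l, a ubiquitin ligase that works with a PARP enzyme, and Plscr1, an interferon-inducible phospholipid scramblase, were also called. Plscr1 stood at 23.8 and 27.7 in CO and at 6.93, 8.21 and 8.22 in OC (log2 difference 1.66, SE 0.25, adjusted p = 0.0236 by limma). Its OC libraries also lay below CC: the difference from CC was 0.86 in CO and -0.80 in OC. Of 18 genes of MHC class I antigen presentation, 1 rose, against 0.257% of all genes. That was Tap1, the peptide transporter subunit, at 41.8 and 43.2 in CO and 15.7, 22.5 and 16.9 in OC (1.21, SE 0.19, adjusted p = 0.0308 by limma). Its CO values lay close to the OO mean of 41.3 ± 5.09 (SD, n = 3), and its OC values to the CC mean of 19.6 ± 3.92 (SD, n = 3). The immunoproteasome subunit Psmb9 stood at 13.7 and 20.7 against 4.58, 7.30 and 6.46 (adjusted p = 0.0628 by limma).

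Promoters of the members with the smallest p among those that hold the core of the interferon-stimulated response element (GAAA, any pair of bases, GAAA) are shown to make the element visible. This motif was chosen after the values were seen and was searched on both strands, and its GAA ends can overlap a TTCNNNGAA match. Windows are from RefSeq on GRCm38.p6, and capitals mark the matches.
Isg15 promoter (chr4:156200769-156201068, minus strand): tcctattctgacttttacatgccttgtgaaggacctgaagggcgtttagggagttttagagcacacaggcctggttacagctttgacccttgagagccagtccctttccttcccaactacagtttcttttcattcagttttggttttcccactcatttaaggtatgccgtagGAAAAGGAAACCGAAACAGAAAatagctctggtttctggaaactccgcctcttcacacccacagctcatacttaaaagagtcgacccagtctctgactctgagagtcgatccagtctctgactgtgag
Ifit1 promoter (chr19:34640639-34640938, plus strand): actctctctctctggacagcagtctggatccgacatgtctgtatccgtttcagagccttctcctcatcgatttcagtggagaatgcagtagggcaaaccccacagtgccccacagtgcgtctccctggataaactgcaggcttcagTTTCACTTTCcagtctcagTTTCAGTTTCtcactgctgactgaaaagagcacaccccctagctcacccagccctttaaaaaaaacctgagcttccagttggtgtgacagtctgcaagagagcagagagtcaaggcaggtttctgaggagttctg
In Isg15 the 3 matches begin 78, 72 and 66 bases before the start and overlap one another. In Ifit1 they read on the opposite strand and begin 104 and 85 bases before it. Of 32 interferon-list genes with a window, 17 (53.1%) hold the motif in at least 1 window, against 3.99% of 27025 genes in the table. Of the 5 called members, 3 had a window (Adar, Xaf1 and Rnf213), and 0 of these hold it. Isg15, a ubiquitin-like protein, stood at 8.33 and 11.6 in CO and at 3.29, 4.26 and 3.82 in OC (adjusted p = 0.103 by limma). Ifit1, which binds foreign RNA, stood at 30.3 and 24 against 5.64, 10.9 and 5.73 (adjusted p = 0.0734 by limma). For both, the CO and OC libraries did not overlap.

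**Figure D3:**
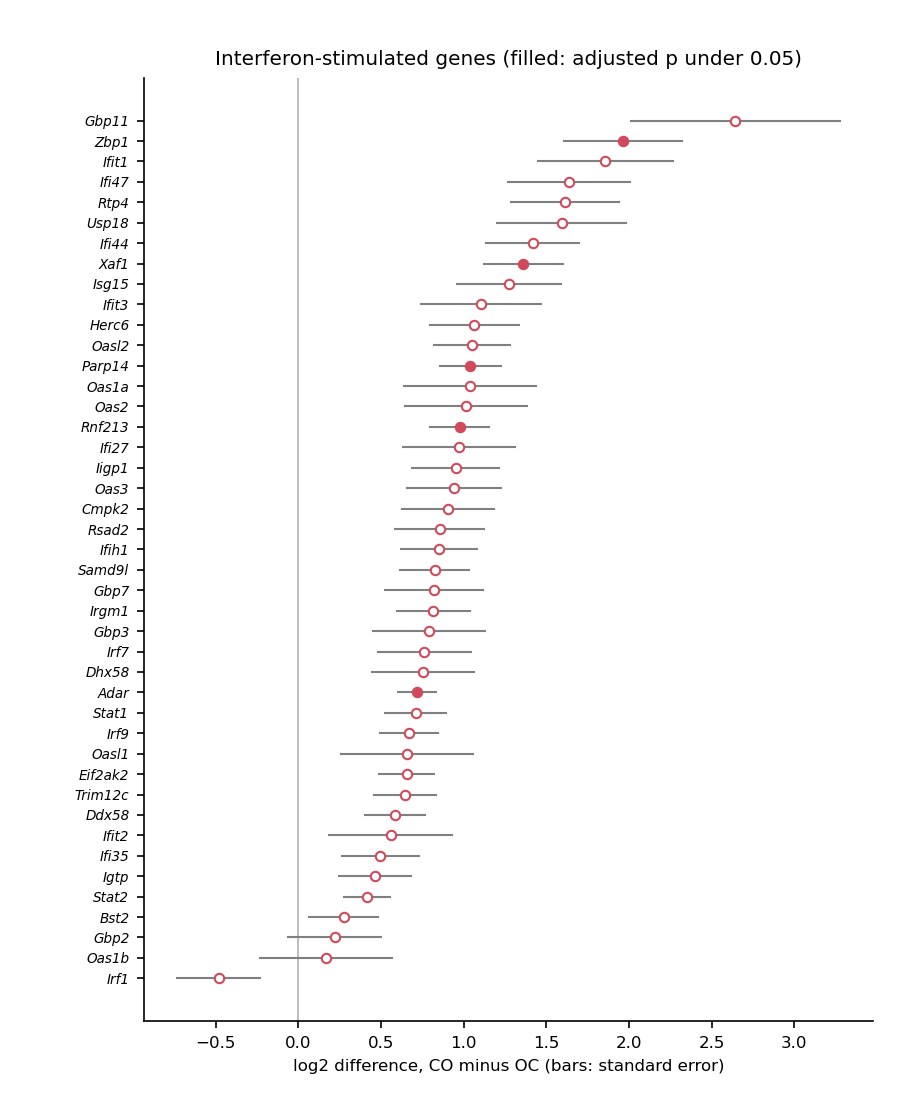
Each row is 1 of the 43 interferon-stimulated genes tested, with its log2 difference of CO minus OC (point) and standard error (bar), and filled points passed an adjusted p under 0.05. All points but that of Irf1 lie right of 0, and 5 are filled.

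Enzymes that handle amino acids were lower in CO for some members. Of 35 genes of amino acid catabolism, 2 fell, against 0.24% of all genes, and 0 rose. At an unadjusted p under 0.05, 10 were lower, against 6.67% of all genes. The median log2 difference was -0.27, and 0.02 without CO.1. Csad, the decarboxylase that makes the precursor of taurine, stood at 104 and 97.1 in CO and at 683, 598 and 722 in OC. The CO libraries were nearly equal and far below the OC libraries, with a log2 difference of -2.72 (SE 0.33, adjusted p = 0.00727 by limma). Csad also stood above CC in OC (CC mean 364 ± 66.6, SD, n = 3), with a difference from CC of 0.88 in OC and -1.84 in CO. Without CO.1 its log2 difference was -2.68 and it did not pass. Etnppl, which breaks down phosphoethanolamine, stood at 63.0 and 13.8 in CO and at 365, 166 and 171 in OC (-2.86, SE 0.50, adjusted p = 0.0367 by limma). CO.1 was the lowest of the 5 libraries for Etnppl, and without it the log2 difference was -1.78.

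None of the 11 genes of the urea cycle and ammonia handling was called, and 5 were lower at an unadjusted p under 0.05, against 6.67% of all genes (median -0.45, and -0.22 with 2 such genes without CO.1). Asl, argininosuccinate lyase, stood at 426 and 200 in CO and at 859, 705 and 691 in OC (adjusted p = 0.118 by limma). Arg1, arginase, stood at 792 and 742 against 1376, 1587 and 1205 (adjusted p = 0.17 by limma). Of 16 periportal genes, which mark hepatocytes near the portal vein, Etnppl was the 1 called, against 0.24% of all genes called lower. At an unadjusted p under 0.05, 6 of them were lower (median -0.44, and -0.27 without CO.1). Of 16 pericentral genes, which mark hepatocytes near the central vein, 1 was also called lower, Cyp27a1. It was the 1 pericentral gene lower at an unadjusted p under 0.05, and the median was 0.11.

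In glucose metabolism, Ppp1r3c, which brings a phosphatase to glycogen and favours its synthesis, stood at 12.8 and 26.4 in CO and at 142, 134 and 71.2 in OC. All OC libraries lay above both CO libraries (log2 difference -2.55, SE 0.34, adjusted p = 0.0114 by limma). It was the only one called of 18 genes of glycolysis and insulin signalling, against 0.24% of all genes called lower. At an unadjusted p under 0.05, 6 of the 18 were lower and 2 higher, against 6.67% and 6.06% of all genes. The median of the 18 was -0.34, and -0.11 without CO.1. Slc37a1, a glucose 6-phosphate antiporter, was higher in CO, at 10.2 and 24 against 1.88, 3.95 and 1.32 (2.59, SE 0.40, adjusted p = 0.0279 by limma). Without CO.1 its difference was 1.99 and it did not pass. Serpina12, which encodes the secreted inhibitor vaspin, stood at 89.0 and 78.8 in CO and at 18, 31.8 and 24.8 in OC (1.77, SE 0.33, adjusted p = 0.0454 by limma). Of 13 gluconeogenesis genes 0 were called. G6pc, the catalytic subunit of glucose 6-phosphatase, stood at 272 and 173 against 807, 527 and 570 (-1.52, adjusted p = 0.122 by limma).

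Of 33 genes of glutathione and antioxidant defence, Mgst3 and Gstm1 fell, 0 rose, 29 had a difference below 0 and 11 were lower at an unadjusted p under 0.05, where the shares over all genes are 0.24% called lower and 6.67% at the unadjusted p (median -0.33, and -0.28 with 7 such genes without CO.1). Gstm1, a cytosolic glutathione transferase with close copies, stood at 181 and 131 in CO and at 672, 452 and 620 in OC (-1.89, SE 0.32, adjusted p = 0.0361 by limma). Mgst3, a microsomal glutathione transferase, stood at 2.33 and 1.53 against 10.6, 9.88 and 10.1 (-2.16, SE 0.35, adjusted p = 0.0337 by limma). For each of them the CO and OC libraries lay apart. The next genes belong to no list and are given because the rule for named genes took them. Ugt1a9, which attaches glucuronic acid and shares exons with its neighbours, stood at 78.6 and 37.0 against 259, 191 and 251. Cbr1, a carbonyl reductase, stood at 25.5 and 25.5 against 98.0, 66.6 and 84.1. Ces1b, a carboxylesterase with close copies, stood at 16.7 and 15.9 against 59.4, 45.9 and 51.5. Their log2 differences were -2.09, -1.66 and -1.64 (adjusted p = 0.0196, 0.00725 and 0.0425 by limma).

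Of 27 drug-metabolising cytochrome P450 and regulator genes, 1 fell and 7 were lower at an unadjusted p under 0.05, against 6.67% of all genes (median -0.41, which was 0.03 with 5 such genes without CO.1 and -0.70 with 15 without CO.0). Cyp2j9, a fatty acid epoxygenase family member, stood at 4.00 and 4.37 in CO and at 40.9, 18.7 and 23.9 in OC (-2.52, SE 0.38, adjusted p = 0.0236 by limma). Cyp3a11, a main drug oxidase with close copies, missed the threshold at 1395 and 313 against 6142, 2496 and 4206 (adjusted p = 0.0552 by limma). CO.1 was its lowest library and OC.0 its highest. Of 26 bile acid genes, 1 fell, against 0.24% of all genes. That was Cyp27a1, the sterol 27-hydroxylase of the acidic pathway, at 312 and 244 in CO and 550, 508 and 486 in OC (-0.90, SE 0.15, adjusted p = 0.0361 by limma).

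Cholesterol synthesis genes had negative differences throughout, though 1 of 25 was called, against 0.24% of all genes called lower. All 25 had a difference below 0, 13 were lower at an unadjusted p under 0.05 against 6.67% of all genes, and the median was -1.07. The called gene was Hsd17b7, which acts late in sterol synthesis, at 43.8 and 52.2 in CO and 88.6, 103 and 75.3 in OC (-0.88, SE 0.15, adjusted p = 0.0361 by limma). Hmgcs1, which makes HMG-CoA, stood at 90.3 and 122 against 289, 524 and 236 (-1.64, adjusted p = 0.0956 by limma), and its difference from CC was 1.27 in OC and -0.38 in CO. The list's mean level relative to CC was -0.58 and 0.09 log2 units in CO and 0.43, 1.55 and 0.44 in OC. It was -0.19, 0.38 and -0.19 in the CC libraries and -0.65, -0.20 and 0.52 in OO, so OO.2 lay above OC.0 and OC.2. The highest of these is OC.1, which also held high acute phase transcripts, and without OC.1 the median was -0.69 with 7 members lower at an unadjusted p under 0.05. Without CO.0 they were -0.72 and 5. The part of OC.1 in the result beyond these values was not tested.

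**Figure D4:**
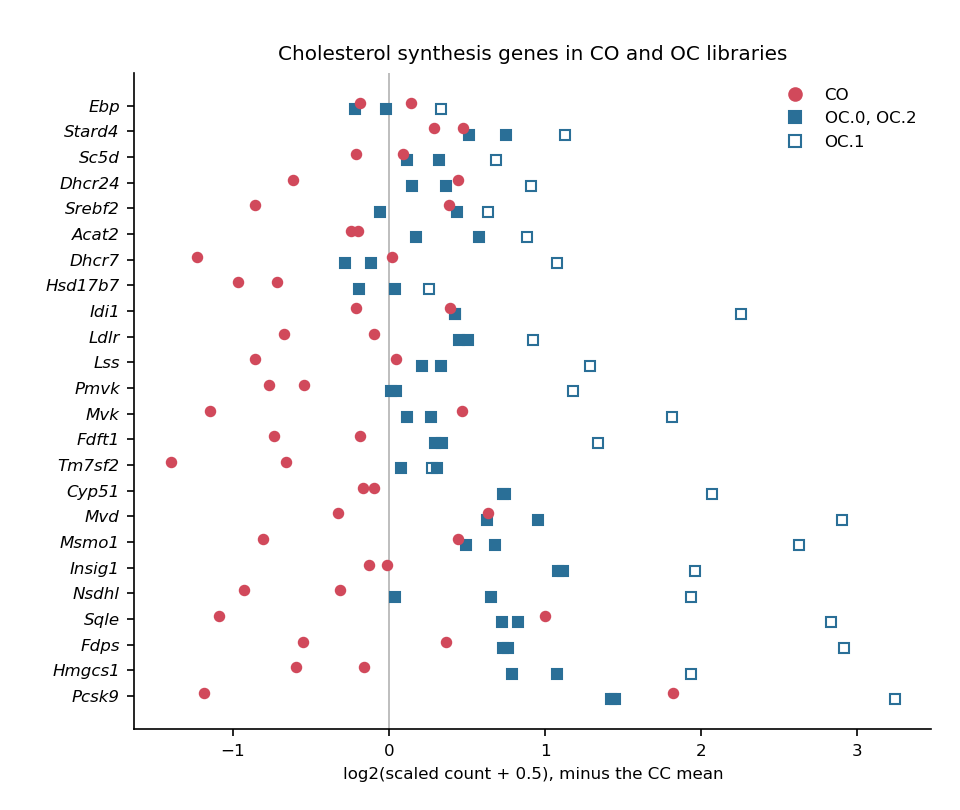
Each row is 1 of 24 of the 25 cholesterol synthesis genes, and each point is a CO or OC library placed by its log2(scaled count + 0.5) minus the mean of the CC libraries, with OC.1 drawn open. OC.1 lies furthest right in every row except Tm7sf2, and the CO libraries lie mostly left of OC.0 and OC.2.

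Acute phase genes differed widely between libraries of 1 group. Of 32 tested, Steap4 rose, against 0.257% of all genes called higher, and 31 had a difference above 0. At an unadjusted p under 0.05, 12 were higher, where the share over all genes is 6.06%. The list's mean level relative to CC was 0.79 in CO.0 and 2.72 in CO.1. It was 0.06, 1.84 and -0.32 in OC, so that the groups overlapped. The median of 0.95 became 0.40 with 4 such genes without CO.1, 1.65 with 24 without CO.0, 1.42 with 24 without OC.1 and 0.74 with 7 without OC.2. Without OC.0 and CO.1, the libraries high in pancreas transcripts, it was 0.24. Without OC.1 and CO.1, the libraries highest in acute phase transcripts, it was 0.84, and without CO.1, OC.0 and OC.1 it was 0.88. Each of these fits kept CO.0 as its only CO library. Saa1, serum amyloid A, stood at 389 and 5045 in CO and at 65.2, 3415 and 14.4 in OC (3.23, 95% confidence interval -0.77 to 7.23). Tifa, an adaptor of inflammatory signalling to NF-kappaB, was called, at 32.0 and 79.0 in CO and 9.05, 15.8 and 9.40 in OC (2.14, SE 0.40, adjusted p = 0.0441 by limma). For Tifa the libraries with high acute phase transcripts were the highest of each group. Without CO.1 its log2 difference was 1.49 and it did not pass.

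Among transcription factors of the hepatocyte, Onecut1 (HNF6) was the only one called of 20, against 0.257% of all genes called higher. At an unadjusted p under 0.05, 4 of the 20 were higher and 1 lower, against 6.06% and 6.67% of all genes. Onecut1 stood at 66.5 and 51.0 in CO and 5.70, 14.6 and 7.68 in OC (2.68, SE 0.49, adjusted p = 0.0425 by limma). Its OO libraries lay between, at 15.2, 30.7 and 24.4, and its CC libraries at 5.38, 13 and 3.34. Xbp1, a factor of the unfolded protein response, was the only one called of 28 genes of endoplasmic reticulum stress, against the same 0.257%. At an unadjusted p under 0.05, 2 of the 28 were higher and 1 lower. Xbp1 stood at 401 and 419 against 157, 233 and 195 (1.09, SE 0.19, adjusted p = 0.0372 by limma). Its mean was 230 ± 35.6 (SD, n = 3) in OO. Calr, a chaperone of the same list, stood at 955 and 1012 against 457, 992 and 655, with overlap.

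The remaining named genes belong to no list. Egfros, a noncoding gene opposite Egfr, had the largest called difference, at 118 and 160 in CO and 18.3, 16.9 and 4.26 in OC (3.58, SE 0.62, adjusted p = 0.0361 by limma). Without strand information its reads cannot be told apart from those of an overlapping gene. Srgap3, a GTPase-activating protein of the Slit-Robo pathway, stood at 0.833 and 0.437 in CO and at 8.81, 7.91 and 6.75 in OC (-2.89, SE 0.27, adjusted p = 0.00166 by limma). Its CO values lie near the floor of 3 reads (0.5 in CO.0 and 0.655 in CO.1), so the size of its fold is uncertain. Nipal1, a magnesium transporter, stood at 1.17 and 3.71 against 12.5, 11.1 and 30.7 (-2.66, adjusted p = 0.0361 by limma), and its difference was -1.99, without a call, when CO.0 was left out. Ten1, of a telomere capping complex, stood at 7.17 and 8.08 in CO and at 1.17, 2.59 and 2.35 in OC (1.73, adjusted p = 0.0425 by limma). Cldn14, a tight junction claudin, stood at 10.7 and 10.0 against 3.05, 4.71 and 3.08 (1.42, adjusted p = 0.0262 by limma). Gas1 and Htatip2, which the rule did not name and which are given because they passed in every fit with 1 library left out, stood at 3.50 and 3.49 against 11.4, 11.3 and 12.0, and at 13.2 and 15.3 against 34.7, 30.3 and 39.5.

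Beside the comparison with each other, CO and OC can each be set beside CC. For the 31 genes called higher in CO, the log2 difference from CC ran from 0.59 to 3.43 (median 1.22) in CO and from -0.80 to 0.58 (median 0.03) in OC. For the 29 called lower, it ran from -3.39 to -0.60 (median -1.63) in CO and from -0.61 to 0.88 (median 0.03) in OC. Both sets of values use the same CC libraries, and the genes were chosen for their difference between CO and OC. Hamp and Etnppl, at -0.61 and -0.53, lay below CC in OC as well as in CO, whereas Csad lay above CC in OC.

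Pathway lists with no called gene, beside the urea cycle and gluconeogenesis lists above, were the 44 genes of oxidative phosphorylation (median -0.11), 46 cytosolic ribosomal protein genes (-0.09), 13 mitochondrially encoded genes (0.17), 29 genes of fatty acid oxidation (0.19), 19 of fatty acid synthesis (-0.16), 36 of complement and coagulation (0.12), 19 of the circadian clock (-0.19), 20 of lipid droplets and lipid uptake (0.17), 10 chemokines (0.04) and 26 of the growth hormone and IGF axis (0.06). Of the 19 fatty acid synthesis genes, 6 were lower and 1 higher at an unadjusted p under 0.05, against 6.67% and 6.06% of all genes. Fasn, fatty acid synthase, stood at 74.5 and 98.0 against 175, 215 and 137 (-1.01, adjusted p = 0.181 by limma). Fabp5, a fatty acid binding protein of the lipid uptake list, stood at 24.2 and 43.9 against 2.58, 10.8 and 2.64 (adjusted p = 0.0739 by limma).

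Markers of other cells gave 1 call, that of Bmp6 among the endothelial genes, where 0.497% of all genes were called. Summed levels of 22 macrophage markers were 1042 and 960 in CO and 944, 1230 and 935 in OC, with overlap. Neutrophil markers summed to 24.8 and 52.0 in CO and 16.3 to 22 in OC, without overlap, at levels worth few reads, and S100a8 and S100a9 did not pass (adjusted p = 0.0734 and 0.114 by limma). Lymphocyte markers summed to 112 and 97.8 in CO and 115 to 210 in OC. The part of these cells in the interferon and acute phase results was not tested. All 18 pancreas genes had a difference above 0, and their median of 1.21 ran from -1.33 to 3.88 as single libraries were left out.

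**Figure D5:**
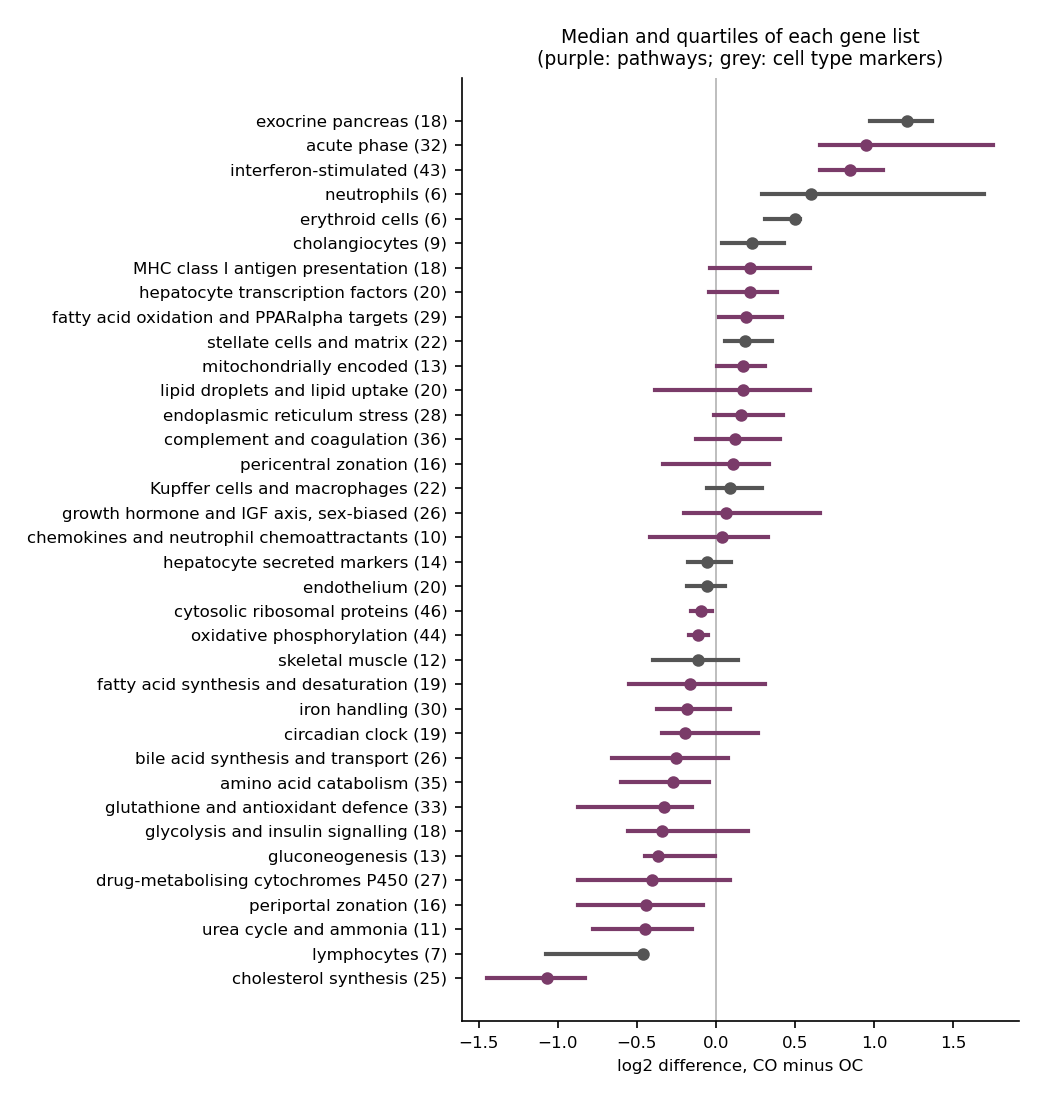
Each row is a list with at least 6 tested genes (number in brackets), with the median log2 difference of CO minus OC (point) and the quartiles (bar), in purple for pathways and grey for cell type markers. Cholesterol synthesis lies lowest at -1.07, interferon-stimulated genes lie at 0.85, and the acute phase and pancreas lists lie at 0.95 and 1.21 with wide differences between libraries of 1 group.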

How the data were processed

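Liver RNA libraries of 4 diet groups were analysed from 1 deposited table of 12086 genes and 11 libraries, and all of its value columns were assigned to a group by name (0 were left over). Its unit, as the authors deposited it, is a signal: per the file headers 1 column came from each alignment, and the values themselves show gene counts divided by 1 factor per library. Between 95.6% and 97.4% of the values of a library were whole multiples of 1 read (tolerance 0.01). This gave estimated depths of 3976158 to 7969056 reads in every library but OO.0. The step taken as 1 read was 0.0334 in OO.0, against 0.117 to 0.276 in the others. Its share of whole multiples was also the lowest, so its estimate of 27837610 reads is doubtful. Floors of 3 reads cover counting error only. The submitters' processing notes name Bowtie 1.2.3 and mm8. The authors called the table CPM. Beyond that name, the sources used here give nothing on how the factor of each library was set. They also give nothing on the read counter and its strand setting. Values of overlapping genes and of genes with close copies are therefore uncertain. Symbols were matched for 11965 genes and 121 had none.

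The test was limma 3.58.1 (R 4.3.3), moderated with an intensity trend, on log2(value + 0.5) with 1 mean per group over all 11 libraries (7 residual and 4.67 prior degrees of freedom), for genes reaching 1 in at least 3 libraries. Benjamini-Hochberg adjustment at 0.05 covered 12084 genes. Fold changes are on that scale and understate changes of low genes. On simulated data 66% of genes raised by 1 log2 unit and 64% of genes lowered by 1 were recovered (12086 genes, CO against OC), and 9 of 171 calls were false. The simulated noise was independent between genes, and low genes were not among those changed. In the real libraries pancreas and acute phase genes moved together in single libraries, so these rates may not hold for them. The design had assumed CPM and a count test as an alternative, which was not run because whole reads could not be accepted for every library.

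Named genes were, in each direction, the 12 called genes of largest log2 difference whose CO and OC libraries did not overlap and whose higher group averaged 5 or more, without Gm and Rik symbols, plus up to 4 members with the smallest p from each of 37 lists, the genes set aside and Hamp. Some genes that this rule names are left out of the text and figures. Members, lists and tests were chosen with earlier results of these data known. Promoter windows are from RefSeq (GRCm38.p6). Figures used matplotlib 3.10.9. Alternatives covered the pseudocount, scaling, filter, variance model, groups fitted, thresholds and leaving out libraries. Leaving out CO.1, OC.0 and OC.1 together was chosen after seeing the data.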

Additional observations from a re-analysis of the deposited data

How the results depend on the processing

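Against 60 genes called (31 higher in CO, 29 lower), leaving out 1 library gave 7 to 81 (1 to 41 higher, 6 to 41 lower), and without a CO library the remaining one is assumed to vary like the other groups. Sample weights gave 16 (7 higher, 9 lower) and the fit to CO and OC alone gave 15 (4 and 11). Without OC.1 and CO.1 there were 10 (2 and 8). Limma called 0 genes, 0 higher and 0 lower, without OC.0 and CO.1, where 936 had an unadjusted p under 0.05, and again 0 without CO.1, OC.0 and OC.1, an alternative chosen after seeing the data, where 788 had. Fewer samples enter these fits. An adjusted p under 0.1 gave 172 (85 and 87). Pseudocounts of 0.1 and 2, both other scalings, the filters, a robust variance and the treatment of genes at 0 gave 55 to 72. All 60 kept their direction under every alternative that tested them. Leaving out libraries could not have turned it, because the CO and OC libraries of all 60 did not overlap. Count-based tests were not run. No paired analysis was possible because the columns carry no number that ties a library to a labelled sample or litter. With 2 CO libraries, a miss of the threshold does not show equal levels.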
